A study of Homo sapiens with 3 samples.

Results

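Messenger RNAs of 9 human genes that encode replacement histone variants were measured in cultured HEK293T cells, a human embryonic kidney line. The members were taken by RefSeq identifier: H3F3A (NM_002107), H3F3B (NM_005324), CENPA (NM_001809), H2AFZ (NM_002106), H2AFV (NM_012412), H2AFX (NM_002105), H2AFY (NM_004893), H1F0 (NM_005318) and H1FX (NM_006026). They are 9 of the 25443 transcripts present in at least 1 of the 3 lists of RPKM values (read counts corrected for transcript length and for each sample's mapped reads). Of these members 8 had a row, and NM_012412 had none in any list and stands at 0 RPKM by the rule. The study had 1 sample for each of 3 conditions, all kept for 48 h. The control sample grew in normal medium, the DMSO sample in medium with 1 mM dimethyl sulfoxide, the solvent, and the BDE-209 sample in medium with 1 µM BDE-209 (decabromodiphenyl ether, a brominated flame retardant) and 1 mM DMSO. The treatment label of the control sample says that it is normal but also mentions BDE209, whereas the protocol in the labels and the study's methods describe it as free of both agents. Every comparison with the control rests on the protocol being right. HEK293T is the name in the study's methods, whereas the GEO labels name the parent line, without the T. With 1 sample per condition no difference below has a replicate check, and the intervals given cover counting error only, not variation between cultures. In such bulk RNA, fewer cells that express a gene and less RNA per cell cannot be told apart.

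Replacement histones can be made outside DNA replication and can enter chromatin independently of it. Most histones of a dividing cell come instead from clustered genes whose mRNAs lack introns and a poly(A) tail and end in a conserved stem-loop. Replacement histone mRNAs are polyadenylated, so they are kept by the poly(A) selection used here. H3F3A and H3F3B encode the same protein, H3.3, which marks active genes and telomeric chromatin. CENPA encodes the H3 variant that defines centromeres. H2AFZ and H2AFV encode the H2A.Z proteins found at promoters, H2AFX encodes H2A.X, which is phosphorylated at DNA breaks, and H2AFY encodes macroH2A1, enriched in silent chromatin. H1F0 and H1FX encode linker histones, which bind the DNA between nucleosomes.

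The end of the mRNA is what brings these transcripts into the libraries, so the letters around the poly(A) signal are shown for 3 H2A members and both linker histones. Sequences were read from GRCh37 with the GENCODE transcript nearest in length, in the direction of transcription. For H2AFV, whose member row was absent and gave no length, the longest coding transcript was taken. An AATAAA or ATTAAA lay within the last 50 bases of 8 of the 9 transcripts, H2AFY being the exception. Capitals mark the signal.
H2AFZ: gtggataagttcAATAAAggtcatatccca
H2AFV: ttatatgatggaATTAAAtatattctgtgt
H2AFX: tggactaattttATTAAAggattgtttttt
H1F0: ttaaaactttaaAATAAAttggaaaaggga
H1FX: ttttttgggcacAATAAAgcgtttaaacct

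H2AFX also carried the inverted repeat of the clustered histone mRNAs, at bases 553 to 568 of its transcript, and no other member matched it. Background knowledge is that H2AFX mRNA can end either at this stem-loop or further on with a poly(A) tail, and only the latter form is expected to be kept by poly(A) selection. Capitals mark the repeat and its loop.
H2AFX stem-loop: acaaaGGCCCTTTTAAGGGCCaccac

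H2AFX and H1FX turned out to be lower in the BDE-209 sample than in both other samples, so their promoters are shown, as the 250 bases before the start site in RefSeq (GRCh38.p14), read towards the gene. That of H2AFX lies at chr11:119095466-119095715 on the minus strand, and that of H1FX at chr3:129316287-129316536 on the minus strand. Capitals mark CCAAT or, on the other strand, ATTGG.
H2AFX promoter: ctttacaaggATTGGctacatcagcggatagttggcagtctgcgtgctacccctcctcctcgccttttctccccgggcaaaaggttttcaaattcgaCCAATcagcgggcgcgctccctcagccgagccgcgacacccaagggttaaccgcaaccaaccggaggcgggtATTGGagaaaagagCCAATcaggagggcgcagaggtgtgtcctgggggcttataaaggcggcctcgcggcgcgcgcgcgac
H1FX promoter: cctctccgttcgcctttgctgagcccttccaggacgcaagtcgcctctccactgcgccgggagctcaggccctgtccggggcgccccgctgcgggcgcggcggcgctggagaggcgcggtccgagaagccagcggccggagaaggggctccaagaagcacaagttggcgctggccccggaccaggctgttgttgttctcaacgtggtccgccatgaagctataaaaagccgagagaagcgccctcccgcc
The H2AFX promoter held 4 such matches and the H1FX promoter 0. The letters CCAAT were found on either strand in 32.0% of 35116 RefSeq promoters of the same length. Among the other members with 1 promoter in the table, H2AFV and H3F3B held 4 each, H2AFZ held 3 and CENPA held 2. TATAAA, found in 10.7% of promoters, had 1 match each in H2AFX, H1FX, H2AFZ and H3F3B. GGGCGG, found in 42.6%, was without a match in H2AFX, H1FX and H3F3B. TTTGAA, found in 13.3% of promoters, occurred in those of H2AFX and CENPA, and AAACACA, found in 4.82%, occurred in neither H1FX nor H2AFX. Motifs were searched on both strands, and a match is a description of the letters only.

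H3F3A was the highest member in each sample. Its gene lies at chr1:226250417-226259720 (GRCh37, plus strand, 4 exons) and it measured 624 RPKM in the control, 577 in DMSO and 611 in BDE-209, from 3255, 2971 and 3078 recovered reads. More than 99% of listed coding transcripts were lower in every sample. H3F3B, the other H3.3 gene (chr17:73772515-73775860, minus strand, 4 exons), measured 130, 138 and 135 RPKM, from 1731, 1821 and 1735 reads. The control was the lowest sample for H3F3B and the highest for H3F3A. CENPA (chr2:27008924-27017457, plus strand, 5 exons) measured 22.7, 20.6 and 21.5 RPKM, from 157, 141 and 144 reads, and its counting intervals overlapped in all 3 samples.

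H2AFZ (chr4:100869245-100871437, minus strand, 5 exons) was the second highest member, with 408 RPKM in the control, 375 in DMSO and 384 in BDE-209. H2AFX (chr11:118964584-118966175, minus strand, 1 exon) measured 82.5, 85.7 and 69.0 RPKM, from 660, 677 and 533 reads. The BDE-209 value was the lowest of the 3 and its interval, 63.3 to 75.1 RPKM, lay below those of the control (76.4 to 89.1) and DMSO (79.4 to 92.5). H2AFY (chr5:134670071-134734921, minus strand, 9 exons) was the lowest listed member, with 3.87, 2.17 and 1.78 RPKM. The smallest whole read counts that gave these values were 9, 5 and 4, and counts at the length nearest to the annotated transcript, 1923 bases, were 36, 20 and 16. For H2AFV (chr7:44866390-44887676, minus strand, 5 exons) the row outside the rule, NM_138635, held 31.1, 28.3 and 28.4 RPKM.

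H1F0 (chr22:38201236-38203439, plus strand, 1 exon), the linker histone typical of cells that have stopped dividing, measured 90.3 RPKM in the control, 101 in DMSO and 95.7 in BDE-209. H1FX (chr3:129033614-129035129, minus strand, 1 exon) measured 99.6, 103 and 82.2 RPKM, from 735, 754 and 586 reads. Its interval in BDE-209, 75.7 to 89.2 RPKM, lay below the intervals of the other samples, 92.5 to 107 in the control and 96.2 to 111 in DMSO. H1FX was thus above H1F0 in the control and DMSO samples, where their intervals overlapped, and below H1F0 in BDE-209, where they did not. In all samples the order ran from H3F3A through H2AFZ and H3F3B to the group of H1FX, H1F0 and H2AFX, then CENPA and H2AFY, and neighbours outside that group had intervals apart. The 8 listed members summed to 1461 RPKM in the control, 1404 in DMSO and 1401 in BDE-209, of which H3F3A alone made up 42.7%, 41.1% and 43.6%.

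**Figure D1:**
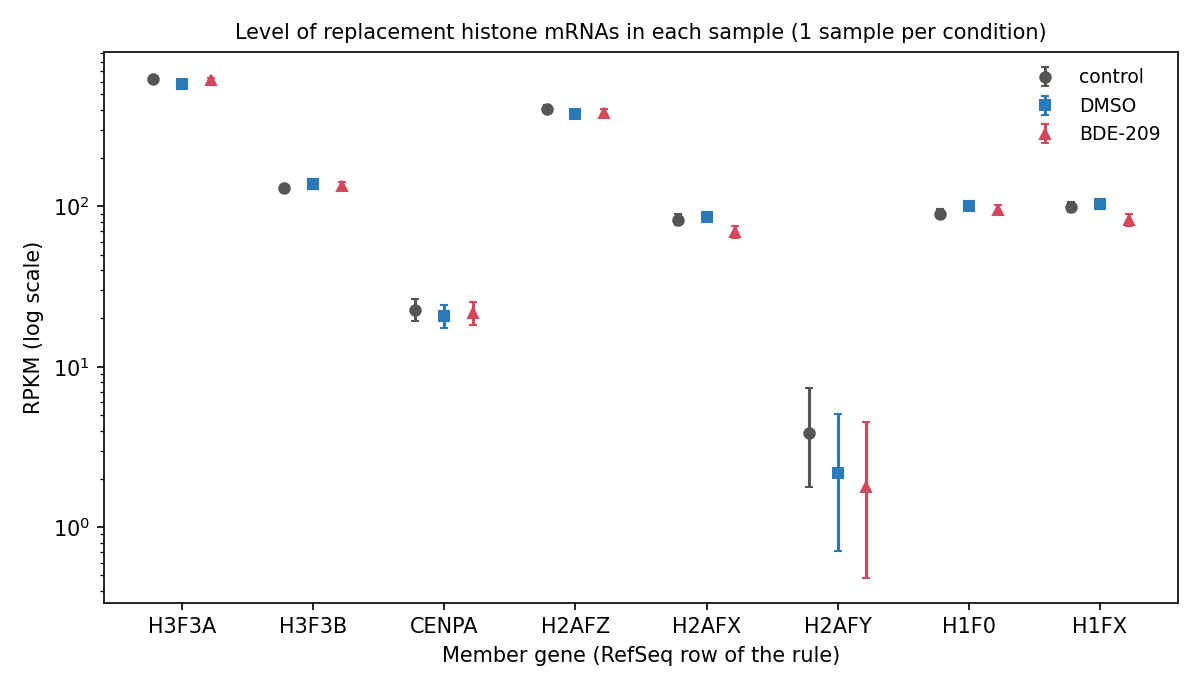
Level of each listed member in RPKM (log scale) in the control (circles), DMSO (squares) and BDE-209 (triangles) samples, 1 sample each, with 95% Poisson intervals of the recovered reads as bars. H3F3A sits highest at 577 to 624 RPKM and H2AFY lowest at 1.78 to 3.87, and the BDE-209 points of H2AFX and H1FX lie below their other points.

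BDE-209 against DMSO asks what the flame retardant adds to its solvent. H2AFX and H1FX were lower in the BDE-209 sample, H3F3A was slightly higher, and the intervals of the other 5 listed members included 0. The log2 ratio of RPKM was -0.31 for H2AFX (interval -0.48 to -0.15), which is 0.805 of the DMSO level. For H1FX it was -0.33 (-0.49 to -0.17), which is 0.795 of the DMSO level. For H3F3A it was 0.08 (0.01 to 0.16), and this interval came closest to 0 of the 3.

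The remaining log2 ratios between BDE-209 and DMSO were small or imprecise. They were 0.04 for H2AFZ (-0.06 to 0.13), -0.04 for H3F3B (-0.13 to 0.06) and -0.08 for H1F0 (-0.21 to 0.04). CENPA stood at 0.06 (-0.28 to 0.41) and H2AFY at -0.29 (-2.62 to 1.93), both too thinly read for a difference of the size seen in H2AFX to be detectable. No listed member reached the 2-fold change that the study used as a threshold, against 1.36% of 14258 coding transcripts with a mean of at least 1 RPKM. Of the 8 listed members 3 had a counting interval off 0, against 5.30% of coding transcripts. This share rises with read number, and was 9.26% among 2419 coding transcripts with a mean of 500 to 4000 reads, a range that holds 6 of the members and all 3 of those off 0. These background shares rest on the smallest whole counts, which are lower bounds, so they may be too low here and in the comparisons below. The median log2 ratio was -0.06 over the listed members, 3 of them higher and 5 lower, and -0.0014 over all coding transcripts tested.

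DMSO against control asks what the solvent does alone. H3F3A and H2AFZ were lower in the DMSO sample and H1F0 was higher, all by small amounts. The log2 ratio was -0.11 for H3F3A (-0.19 to -0.04), -0.12 for H2AFZ (-0.22 to -0.03) and 0.17 for H1F0 (0.04 to 0.29). H2AFX and H1FX, the members lower in BDE-209, were at 0.06 each, with intervals of -0.10 to 0.21 and -0.09 to 0.20. The interval of H3F3B, at 0.09, reached just below 0 (-0.0041 to 0.19), and that of CENPA, at -0.14, ran from -0.48 to 0.20.

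H2AFY had the widest interval between DMSO and control, at -0.83 (-2.75 to 0.90). With read counts at the annotated length this narrowed to -1.70 to -0.0023. No listed member passed 2-fold, against 1.39% of coding transcripts. The 3 members off 0 with the smallest counts compare with 7.87% of all coding transcripts tested and 16.2% of those with 500 to 4000 reads. Members were split evenly in direction, 4 higher and 4 lower, with a median of -0.03 against 0.0062 over all coding transcripts. Leaving out H2AFY, the member farthest from that median, turned it to 0.06.

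BDE-209 against control gives the combined treatment and shares its samples with both comparisons above, so the ratios are not independent of them. H2AFX was at -0.26 (-0.43 to -0.09) and H1FX at -0.28 (-0.44 to -0.12). With the smallest read counts, these were the only listed members with intervals off 0. H2AFZ was at -0.09 (-0.18 to 0.01), H3F3A at -0.03 (-0.10 to 0.04), H3F3B at 0.05 (-0.04 to 0.15), CENPA at -0.07 (-0.41 to 0.26) and H1F0 at 0.08 (-0.04 to 0.21). H2AFY, at -1.12, was the only member past 2-fold, against 1.33% of coding transcripts, but on 4 and 9 reads its interval ran from -3.27 to 0.72. At the annotated length, near that of the gene's other rows, the counts were 16 and 36 and that interval was -2.07 to -0.23, off 0. The 2 members off 0 compare with 8.32% of coding transcripts, and with 18.9% of those with 500 to 4000 reads. That is 2 of the 6 members in that range. The listed members had a median of -0.08, with 2 higher and 6 lower, against 0.0024 over all coding transcripts.

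**Figure D2:**
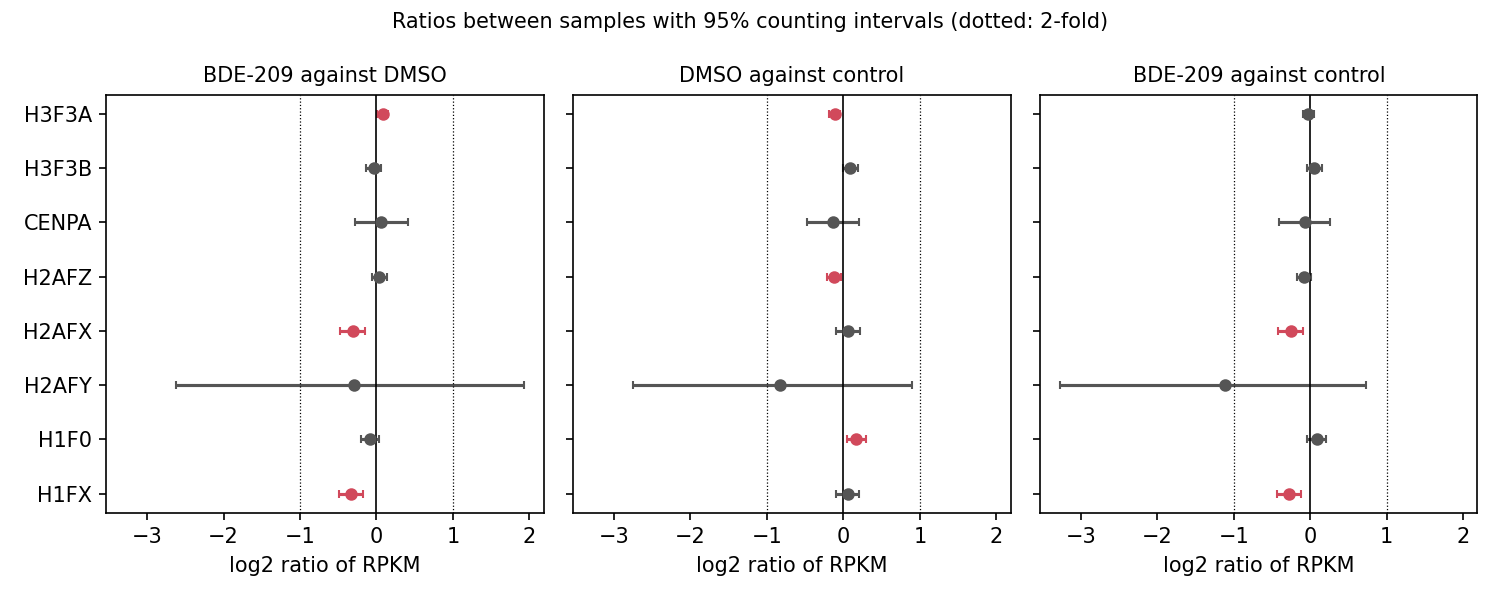
Log2 ratio of RPKM of each listed member for the 3 pairs of samples, with 95% counting intervals as bars, 0 as a solid line and 2-fold as dotted lines, in red where the interval lies off 0. H2AFX and H1FX lie left of 0 in both comparisons with BDE-209 (between -0.26 and -0.33) and at 0.06 between DMSO and control. The bar of H2AFY, drawn from its smallest read counts, is the widest in every panel.

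Ratios of related members within a sample do not depend on how the samples were scaled. The linker histones H1FX and H1F0 shifted against each other, from an H1FX to H1F0 ratio of 1.10 in the control (1.00 to 1.21) and 1.02 in DMSO (0.930 to 1.12) to 0.860 in BDE-209 (0.776 to 0.952). The log2 change of this ratio was -0.25 from DMSO to BDE-209 (-0.45 to -0.05), -0.36 from control to BDE-209 (-0.56 to -0.16) and -0.11 from control to DMSO (-0.30 to 0.08). The H2AFX to H2AFZ ratio, chosen after the values were seen, was 0.202, 0.229 and 0.180 in the control, DMSO and BDE-209 samples. It changed by -0.35 from DMSO to BDE-209 (-0.54 to -0.16), while its changes from control to DMSO (0.18, -0.0082 to 0.36) and from control to BDE-209 (-0.17, -0.37 to 0.02) had intervals that included 0.

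Both H3.3 genes also shifted against each other, but most between control and DMSO. The H3F3B to H3F3A ratio was 0.208 in the control, 0.240 in DMSO and 0.221 in BDE-209. Its log2 change was 0.20 from control to DMSO (0.08 to 0.33), -0.12 from DMSO to BDE-209, where the interval ended at -3.3e-05, and 0.08 from control to BDE-209 (-0.04 to 0.20). Histone H3.3 genes have near-identical copies elsewhere in the genome, as does H2AFZ. The study's methods say that only uniquely mapped reads were kept. Yet the clustered genes HIST2H2AA and HIST2H2AA4 held the same values, 4.64, 6.66 and 6.01 RPKM in control, DMSO and BDE-209. How reads shared by copies were counted is thus unclear, and the levels of the H3.3 genes and H2AFZ are uncertain in absolute terms. H2AFZ exceeded the NM_138635 row of H2AFV 13.1-fold, 13.2-fold and 13.6-fold, and none of the changes in this ratio had an interval off 0. CENPA stood at 0.0300, 0.0288 and 0.0288 of the summed H3.3 transcripts, again with no interval of a change off 0.

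**Figure D3:**
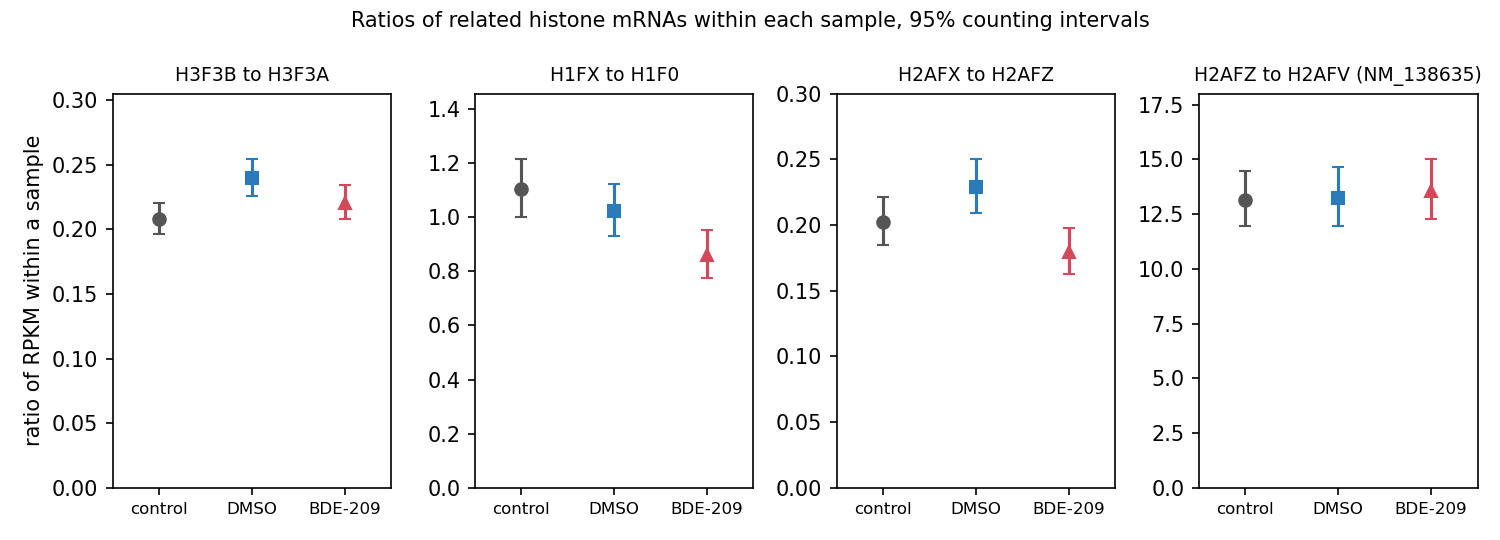
Ratio of RPKM between related histone mRNAs within the control (circles), DMSO (squares) and BDE-209 (triangles) samples, 1 sample each, with 95% counting intervals as bars and each axis starting at 0. H1FX to H1F0 is lowest in BDE-209 at 0.860, H3F3B to H3F3A is highest in DMSO at 0.240, and H2AFZ to H2AFV stays between 13.1 and 13.6.

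H2AFX and H1FX share properties that the other members lack together. Both are single-exon genes of high GC content, 66.8% for the H2AFX transcript and 68.6% for H1FX, whereas the other members lie between 42.8% (H3F3A) and 52.0% (H1F0, also 1 exon). GC content moved with the ratio between BDE-209 and DMSO across other genes too. Among coding transcripts outside the members with a mean of at least 10 RPKM, the median log2 ratio was 0.02 below 40% GC (1357 transcripts) and -0.08 from 65% GC upward (173 transcripts, of which 122 were lower in BDE-209). Between DMSO and control the median of those 173 was 0.0042. The 14 single-exon transcripts with at least 60% GC had a median of -0.15 between BDE-209 and DMSO, 11 of them lower, and of -0.22 between BDE-209 and control, all 14 lower.

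How much of the lower values remained depended on which transcripts were taken for comparison, and both choices were made after the values were seen. With the median of coding transcripts within 2.5 percentage points of GC subtracted, the log2 ratio of BDE-209 to DMSO was -0.24 for H2AFX (221 such transcripts) and -0.24 for H1FX (91 such transcripts). Against the control the same step gave -0.19 for H2AFX and -0.20 for H1FX. After this subtraction the intervals of both lay off 0 in both comparisons, and that of H3F3A between BDE-209 and DMSO did not. With the median of the 14 single-exon, GC-rich transcripts subtracted instead, the ratio of BDE-209 to DMSO was -0.16 for H2AFX (-0.32 to 0.0076) and -0.18 for H1FX (-0.34 to -0.02). Against the control that step left -0.03 for H2AFX (-0.20 to 0.13) and -0.05 for H1FX (-0.21 to 0.11), so neither interval was off 0. These intervals leave out the error of the subtracted median, which for the latter step rests on only 14 transcripts. The part of GC content or exon number in the lower values of H2AFX and H1FX was not tested.

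**Figure D4:**
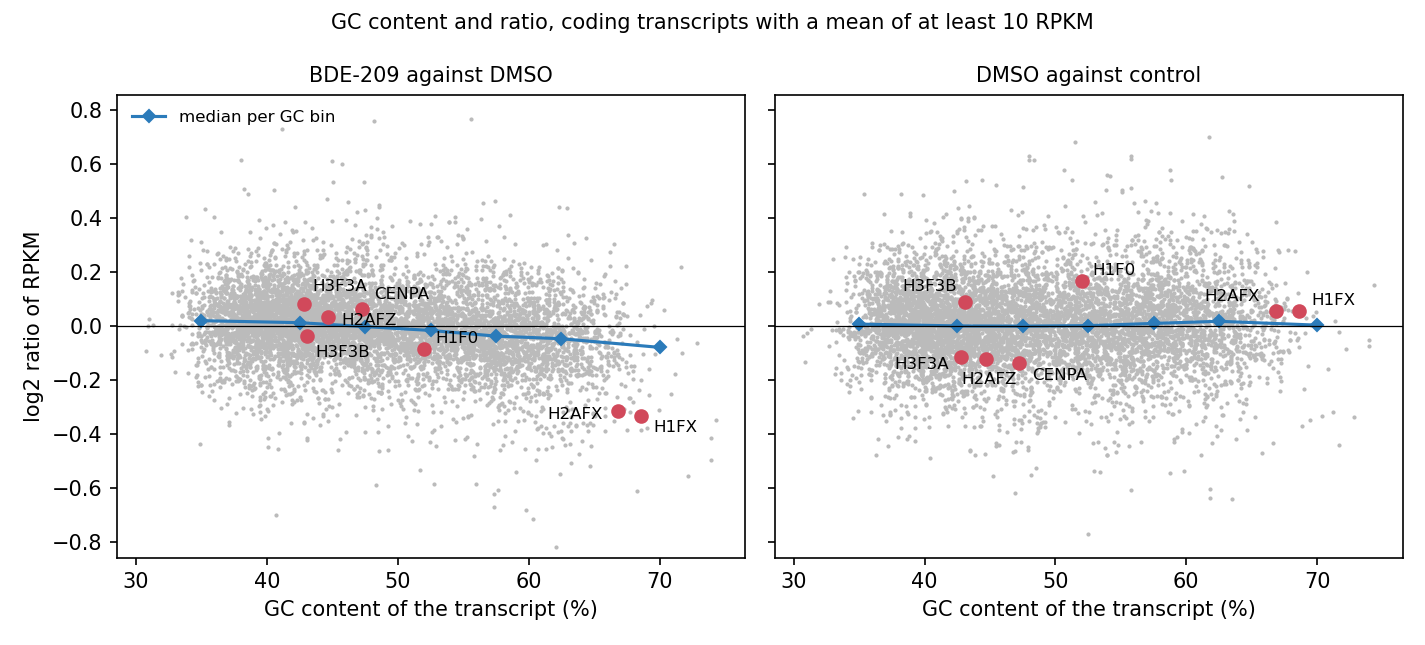
Log2 ratio of RPKM against GC content of the transcript (%) for coding transcripts with a mean of at least 10 RPKM (grey points), with the median per GC bin (blue diamonds) and 7 members (red; H2AFY is below 10 RPKM), for BDE-209 against DMSO and DMSO against control. The medians run from 0.02 below 40% GC to -0.08 from 65% GC in the first panel and stay within 0.02 of 0 in the second, and H2AFX and H1FX lie below the median line in the first panel.

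Several members have further RefSeq rows, and these show how far a ratio belongs to the gene. H2AFY had 4 rows in all. NM_001040158, at 3.62, 2.16 and 1.66 RPKM in control, DMSO and BDE-209, ran close to the member row, and reads shared by isoforms may be counted in both. Its log2 ratio between BDE-209 and control was -1.13 (-2.11 to -0.21), on 15 and 34 reads. NM_138609 measured 2.67, 2.82 and 2.88 RPKM and NM_138610 measured 1.70, 2.48 and 1.98, neither of them lowest in BDE-209. Summed over its rows, H2AFY stood at 11.9, 9.63 and 8.30 RPKM, a log2 ratio of -0.52 between BDE-209 and control, short of 2-fold. The second CENPA row, NM_001042426, measured 21.5, 19.6 and 19.9 RPKM, near the member row in each sample. Besides NM_138635, the H2AFV rows held at most 3 reads in any sample.

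The factors that place or remove these histones were read from a list of 31 genes, among them HIRA, DAXX and ATRX for H3.3, HJURP for CENP-A and the SRCAP and EP400 complexes for H2A.Z. Each gene was read by its RefSeq row of highest mean, and other rows of the gene were left out. All 31 had a row, and for 29 this row reached the mean of 1 RPKM needed to be tested. The rows used for DAXX and KAT5 lay below it, and how reads shared by isoforms were counted is not known. Between BDE-209 and DMSO, 3 were higher with an interval off 0 (ATRX at 0.13, RUVBL1 at 0.16 and CHD2 at 0.17 on the log2 scale) and 2 were lower (RUVBL2 at -0.22 and NPM1 at -0.11), against 5.30% of coding transcripts called in either direction. A second CHD2 row, NM_001042572, was at 0.04 between BDE-209 and DMSO and at 0.44 between DMSO and control. Second rows of ATRX (0.125) and NPM1 (-0.13) lay near the rows used between BDE-209 and DMSO. The list's median was -0.0012. Between DMSO and control 4 were higher and 0 lower, with a median of 0.02 and a background of 7.87%, and between BDE-209 and control 2 were higher and 1 lower, with a median of 0.03 and a background of 8.32%. The extremes were ANP32E, an H2A.Z chaperone, at 0.26 and ACTL6A, a remodeller subunit, at -0.23 between BDE-209 and DMSO, both with intervals that included 0. Of the 29 tested, DMAP1 was the only factor past 2-fold, between DMSO and control on 14 and 5 reads (interval of the log2 ratio -0.05 to 3.33) and, at 1.43, between BDE-209 and control. DAXX, untested, was at 1.22 between BDE-209 and control on 9 and 4 reads (-0.62 to 3.37). ATRX, RUVBL1, CHD2, RUVBL2, NPM1, DAXX and KAT5 were named after their values were seen.

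Clustered, replication-dependent histone genes give the contrast to the polyadenylated members. Of 71 such genes 51 had a row but only 23 reached a mean of 1 RPKM. Between BDE-209 and DMSO 8 of the 23 passed 2-fold, between DMSO and control 7 and between BDE-209 and control 4, yet just 1, 0 and 0 had an interval off 0. Over all coding transcripts 1.36%, 1.39% and 1.33% passed 2-fold, and 5.30%, 7.87% and 8.32% had an interval off 0. These shares are not matched for read number, which was low for many clustered genes. Their ratios ran as far as -1.97 (HIST1H2AC, 3 and 12 reads) and 2.03 (HIST3H2BB, 4 and 1 reads) between BDE-209 and DMSO. HIST2H2AA and HIST2H2AA4 held equal values, as did HIST2H4 and HIST2H4B, and each is counted as a separate gene. HIST1H2BK, with 326, 359 and 315 reads in control, DMSO and BDE-209, was read more deeply than CENPA and H2AFY. Its intervals included 0 in every comparison. The replacement members, most of them read far more deeply than the clustered genes, had 3, 3 and 2 of 8 intervals off 0 with the smallest counts. They had 0, 0 and 1 ratios past 2-fold, in the same order of comparisons.

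Recovered totals were 4843616 reads in the control, 4782037 in DMSO and 4676787 in BDE-209, so 1 read per kilobase was worth 0.206, 0.209 and 0.214 RPKM. The study reports more uniquely mapped reads than this for every sample, and there BDE-209 lies above DMSO. The reason for the difference was not tested. Other totals would shift all ratios of a comparison alike, which matters for intervals that end near 0. Read counts over all rows summed to 114% to 115% of these totals, so some reads were counted in more than 1 row. VIM, a marker of this line, measured 299, 296 and 261 RPKM, a log2 ratio of -0.18 between BDE-209 and DMSO (-0.26 to -0.10) and -0.20 between BDE-209 and control (-0.27 to -0.12). KRT18, another, measured 48.1, 43.6 and 40.7 RPKM and was also lower in BDE-209 than in the control, at -0.24 (-0.48 to -0.0048). NEFM went the other way, at 0.03 against DMSO and 0.12 against the control, with intervals that included 0. Of the 6 tested markers, 1 was lower with an interval off 0 against DMSO (background 5.30%). Against the control 2 were lower (background 8.32%), and none was higher with an interval off 0 in either comparison. The 6 tested markers of the line had a median of -0.10 between BDE-209 and DMSO and between BDE-209 and control, the comparisons in which H2AFX and H1FX were lower, and their part in those results was not tested. In all, 7 of the 8 markers set for the line had a row, PAX2 being the exception and EYA1 staying below 0.3 RPKM. Among markers of other cell types PTPRC and HBB had no row, ALB and CDH5 stayed at or below 0.0944 RPKM, and COL1A1 measured 4.88, 5.19 and 4.44 RPKM.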

How the data were processed

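PolyA RNA of 3 samples, 1 per condition, had been sequenced as single-end reads of 49 bases. Per the study's methods, the authors aligned reads to hg19 with SOAPaligner (no more than 2 mismatches) and used reads with a unique position. The values deposited by the authors are RPKM, 1 for each RefSeq transcript with a read. How reads shared by isoforms were counted is not given in the sources used here. Groups came from the labels. Transcripts absent from a list were set to 0. Each sample's read total was recovered as the number at which RPKM values fall on whole reads over whole transcript lengths (lengths of 200 to 20000 bases, tolerance 0.02 reads), and read counts were taken as the smallest whole numbers, which are lower bounds. Only 13 rows gave none. Ratios of counts had exact binomial (Clopper-Pearson) 95% intervals, which cover counting error only. A difference was counted when it reached 2-fold, or when its interval lay off 0. The study's NOISeq probability was not computed. Coding transcripts with a mean of at least 1 RPKM formed the background. Their counts are lower bounds as well, so their intervals may be too wide and the background shares off 0 too low. All 9 members were named by rule, and of the other lists the lowest and highest gene. Genes of the other lists were each read by their coding RefSeq row of highest mean. Symbols matched 24434 of 25443 rows. GC content and exons came from GENCODE release 44 lifted to GRCh37, with a value for 22045 of 22811 coding rows. The members and lists were chosen with earlier results of these data known. The range of 500 to 4000 reads, the GC and exon comparisons and subtractions, the H2AFX to H2AFZ ratio, the motifs, and the steps without H2AFX and H1FX were chosen after the values were seen. Scripts were tested on simulated data and ran in Python 3.11.15 with numpy 2.4.6, scipy 1.17.1 and pandas 2.3.3. Alternatives covered pseudocounts of 0.5 and 1 RPKM, 2 scalings, summed rows, a 1.5-fold threshold, a 99% interval and annotated lengths. A marker of other cell types is not reported here.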

Additional observations from a re-analysis of the deposited data

How the results depend on the processing

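Of 150 alternative values of the members' log2 ratios, 148 stayed within their counting intervals, and none that had an interval off 0 changed sign. The exceptions were H2AFX and H1FX between BDE-209 and control. They moved to -0.033 and -0.052 with the median of the 14 single-exon, GC-rich transcripts subtracted. Much of the agreement in the other values had to hold. For a member with 1 RefSeq row, such as H2AFX, summing rows returned the same value. The added pseudocounts were small beside the level of every listed member but H2AFY, whose counting intervals were wide. The count of 148 is therefore not a measure of how robust the ratios are. The count of members with an interval off 0 includes H2AFX and H1FX in both comparisons with BDE-209. Leaving them out had to lower the count from 3 to 1 between BDE-209 and DMSO and from 2 to 0 between BDE-209 and control. Between DMSO and control, where neither was counted, it was 3 as before. With the like-GC median subtracted these counts were 2, 3 and 3 for BDE-209 against DMSO, DMSO against control and BDE-209 against control. At 99% they were 2 in each comparison, and with read counts at the annotated length they were 3, 4 and 3. A 1.5-fold threshold moved the members past it from 0 to 1 between DMSO and control. With no filter on low values, 18.9%, 18.8% and 19.0% of coding transcripts passed 2-fold. The range of 100 to 4000 reads, computed first, held 7 members and 8023 coding transcripts, of which 6.53%, 10.6% and 11.2% had an interval off 0. The range of 500 to 4000 reads was chosen after these values were seen. No paired analysis was possible because each condition had 1 sample, and for the same reason no replicate could be left out. Depth limits CENPA and above all H2AFY. With its smallest counts of 4 to 9 reads, no interval of H2AFY lay off 0. With its counts at the annotated length, 16 to 36 reads, the intervals of DMSO and of BDE-209 against control lay off 0. That of BDE-209 against DMSO did not.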

Other observations

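Outside the 9 members, 6 of 15 other variant histone genes had a row, and 3 of them reached a mean of 1 RPKM. H3F3C, a copy of H3F3B, measured 48.8 RPKM in the control, 46.5 in DMSO and 45.5 in BDE-209. How reads shared with H3F3B were counted is unclear, so the level of H3F3C is uncertain too. H2AFY2, which encodes macroH2A2, measured 43.7, 46.6 and 42.5 RPKM, each above the summed H2AFY rows of the same sample. H2AFJ measured 1.17, 0.961 and 0.983 RPKM. None of these genes had an interval off 0 in any of the 3 comparisons.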
